A study of Mus musculus with 24 samples.

Results

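The sclera, the white outer coat of the eye, was compared with the other ocular tissues on arrays chosen by the tissue named in their labels. It was measured on 3 of the 24 microarrays of mouse miRNA in the series, and the comparison was made with the 15 arrays of Cornea, Iris, Lens, Retina and Choroid. Each of these 6 tissues had 1 array from each of 3 lens groups of C57BL/6J mice, which the labels call Control, 0D lens and Lens-induced. The 6 remaining arrays, from the brain regions SCN and LGN, entered no test.

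According to the methods of the study, the animals were male, Control eyes wore no lens, and Lens-induced eyes wore a lens of negative power from 3 weeks of age for 3 weeks, a treatment used to make mouse eyes myopic. In these 2 groups the RNA of 3 mice was mixed in equal amounts for each array. The 0D group was not described there, and the tissue labelled Choroid was dissected together with the retinal pigment epithelium. All 8 tissues of a lens group lay on 1 slide, so that slide, lens group and mice cannot be told apart. The 3 sclera arrays were therefore treated as near-replicates that differ in lens wear, the p-values below measure only the spread between such arrays, and the number of arrays limits their precision.

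The sclera is a fibrous tissue in which fibroblasts lay down a dense collagen matrix, with few vessels and with the extraocular muscles attached to its outer face. It lies against the choroid, which in turn borders the retina. A miRNA is a short RNA that lowers the output of messenger RNAs by pairing with them, mainly through its seed, the bases 2 to 8 from its 5′ end, so that miRNAs with the same seed are grouped as families.

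The sequences of the miRNAs on which the results turn are shown first, because the enriched and the depleted set differ in their seeds and because several of them have seed relatives with another tissue pattern. Mature sequences were taken from RefSeq on the mouse build GRCm38.p6, where 13 of the 17 enriched and all 3 depleted miRNAs had an entry, and the seed is in capitals. Among the enriched miRNAs, the following came from the miR-199a and miR-214 loci, from the miR-379 end of the Dlk1-Dio3 region, from Mir140 and from Mir152, and miR-148a-3p is given because it has the seed of miR-152-3p.
miR-199a-3p: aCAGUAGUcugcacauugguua
miR-199a-5p: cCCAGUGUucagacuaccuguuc
miR-214-3p: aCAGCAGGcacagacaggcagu
miR-379-5p: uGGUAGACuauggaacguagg
miR-299b-5p: gGUUUACCgucccacauacau
miR-140-3p: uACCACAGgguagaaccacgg
miR-152-3p: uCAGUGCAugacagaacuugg
miR-148a-3p: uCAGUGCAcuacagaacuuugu
The depleted miRNAs belonged to the seed groups of the miR-17 to miR-92 family, and each is followed by a relative with the same seed.
miR-106b-5p: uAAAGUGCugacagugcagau
miR-20a-5p: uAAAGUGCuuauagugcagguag
miR-19b-3p: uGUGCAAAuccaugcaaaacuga
miR-19a-3p: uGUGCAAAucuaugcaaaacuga
miR-92a-3p: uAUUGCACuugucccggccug
miR-25-3p: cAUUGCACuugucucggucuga
The 3-prime arm of miR-199b has the same mature sequence as miR-199a-3p, so that the signal named miR-199a-3p holds both. The sequence of miR-299b-5p is contained in that of miR-299a-5p, which is 1 base longer and comes from the other strand of the same place, so that these cannot be told apart either.

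On the GRCm38.p6 build, Mir199a-2 and Mir214 lay within a span of 5664 bases at chr1:162217814-162223477 on the plus strand, inside the spans of Dnm3 and of the non-coding gene Dnm3os, while the second copy, Mir199a-1, was at chr9:21496495-21496564 on the minus strand inside the span of Dnm2. Mir379, Mir299b and Mir3072 were within chr12:109709060-109747960. Mir140 was at chr8:107551244-107551313 inside the span of Wwp2, and Mir152 at chr11:96850393-96850465 inside that of Copz2. Mir106b, with Mir93 and Mir25, lay at chr5:138165321-138165818 inside the span of Mcm7. Mir19b-1 and Mir92-1 were in the Mir17 to Mir92-1 cluster at chr14:115043671-115044506, and both had a second copy at chrX:52741838-52742192. Whether a hairpin is in an exon or an intron was not read, because the table used here gives gene spans only.

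Values are scaled signals, which are the summed background-subtracted intensities of a miRNA's probes after the 75th percentile of the arrays had been made equal, and they can be compared between arrays for 1 miRNA but not between miRNAs. The sclera arrays detected 239 (Control), 217 (0D) and 216 (Lens-induced) of 1881 miRNAs, within the range of 129 to 245 over the 18 ocular arrays. Among the 204 miRNAs detected on all 3 sclera arrays, the median SD was 0.276 (log2), and 21.6% varied more than 2-fold. In the other 5 tissues the median SD was 0.141 to 0.158 and the share 1.36% to 13.4%, so that the sclera was the tissue with the most uneven arrays.

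Of the 308 miRNAs that were detected on at least 3 of the 18 arrays, 79 were higher in the sclera than the mean of the other 5 tissues (25.6% of those tested) and 103 were lower (33.4%) by limma with Benjamini-Hochberg adjustment at 0.05. This mean hides which tissue sets the difference. The sclera was therefore set against each tissue in the same fit. A miRNA was called sclera-enriched when it was higher than in each of the 5 tissues and highest on the sclera array in each lens group, and sclera-depleted in the mirror case. There were 17 enriched miRNAs (5.52% of those tested) and 3 depleted ones (0.974%). Before the test, 53 and 14 miRNAs were counted with all 5 differences in that direction. These 2 counts are upper limits, because tissues tied at the floor described below can be counted through rounding. The 14 include such ties, as for miR-31-5p against the retina and for miR-200c-3p and miR-429-3p against the lens, retina and choroid.

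No miRNA was detected on all 3 sclera arrays and on no other ocular array, and none was missing from the sclera and present on all 15 others. The choroid had the next highest level for 12 of the 17 enriched miRNAs and the cornea for 4, and for miR-7011-5p the other 5 tissues tied at the floor described next, while the choroid had the next lowest level for all 3 depleted ones. Signals under a floor of 9.93, the highest among the arrays of their lowest detected signals, entered the fit at the floor. Arrays at the floor add no spread to the pooled estimate, and the sclera arrays were more uneven than the others. The p-values for the sclera can therefore be too small. With each contrast on its own 6 arrays, a setting added after the data were seen, 13 of the 17 enriched calls and all 3 depleted calls were lost. Where a tissue did not detect a miRNA, only a lower limit of the fold is given, taken from the detection limit of its arrays. For miR-299b-5p, miR-7011-5p, miR-7653-5p and miR-3470a the sclera level was under the detection limit of the lens, so that no fold against the lens can be given, and for miR-7011-5p and miR-7653-5p the same held for the cornea. Their calls against these tissues rest on the floor. With undetected values set at the detection limit, a setting added after the data were seen, 5 enriched miRNAs were called, all among the 17, namely miR-199b-5p, miR-199a-3p, miR-199a-5p, miR-214-3p and miR-140-5p.

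**Figure D1:**
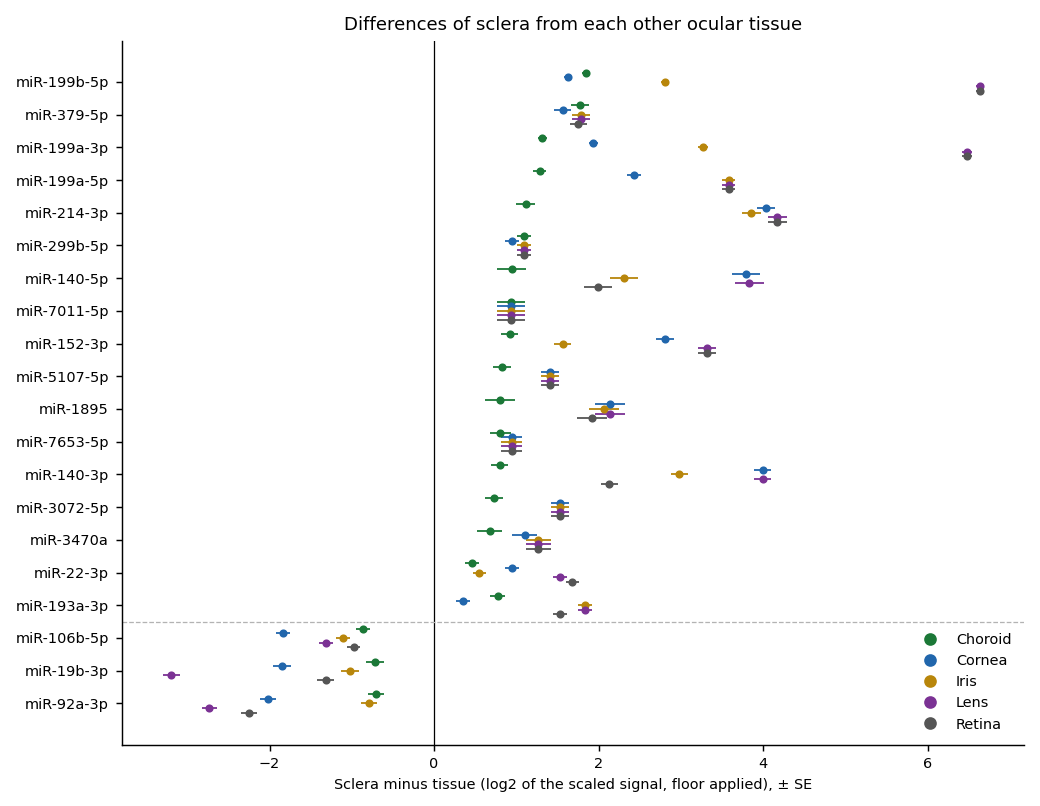
Difference of the sclera from each of the 5 other ocular tissues (x axis, log2 of the scaled signal with the floor applied, ± SE from limma) for the 17 enriched and, under the dashed line, the 3 depleted miRNAs (y axis). Points for a tissue with signals under the floor, or with none detected, are distances to the floor and not measured differences. The green choroid points lie nearest to 0 for most enriched miRNAs.

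The strongest group of enriched miRNAs was the miR-199 and miR-214 set, which is known from fibroblasts and other mesenchymal cells. Of the mesenchyme list, which held miR-199a, miR-199b and miR-214, 4 of 4 tested members were enriched, against 5.52% of all 308 miRNAs, with a median difference from the mean of the other tissues of 3.68 (log2) against −0.0001. Of 5 members on the array, miR-214-5p was not tested and was detected on no sclera array. The lists were chosen with earlier results of these data known, and members of this list share a transcript. The count is therefore a description and not independent support.

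miR-199b-5p had scaled signals of 1052 (Control), 950 (0D) and 958 (Lens-induced) in the sclera. In the cornea, the next highest tissue, it was at 339, 308 and 309, in the choroid at 267, 271 and 283, and in the iris at 149, 141 and 134. The retina gave 3.73, 3.05 and 5.09, and no lens array detected it. No array of another tissue reached the lowest sclera array, and the sclera exceeded the cornea by 1.63 ± 0.05 (log2, SE, 3 arrays each), or 3.10-fold, and the lens at least 38.8-fold. The largest adjusted p-value over the 5 contrasts of limma was 2.14e-11.

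For the other miR-199 products the choroid and not the cornea came next below the sclera. miR-199a-3p was at 907, 929 and 832 in the sclera, at 354, 367 and 349 in the choroid, at 227, 249 and 220 in the cornea and at 93.0, 100.2 and 83.96 in the iris. The retina was at 3.63, 4.02 and 4.78 and the lens not detected, a fold of at least 35.1 against the lens, and the sclera was 2.49-fold above the choroid (limma, adjusted p = 3.49e-09 over the 5 contrasts). miR-199a-5p was at 122, 133.2 and 104 in the sclera and at 46.7, 54.1 and 46.2 in the choroid, 2.44-fold lower, and was detected on no lens and no retina array, which puts the sclera at least 20.5-fold above the retina (adjusted p = 1.07e-07 by limma).

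miR-214-3p, which is made from the same primary transcript as miR-199a-2, had 185, 203 and 153 in the sclera against 77.8, 98.3 and 74.6 in the choroid, a 2.16-fold difference (limma, adjusted p = 1.28e-05). In the iris it was at 13.4, 11.9 and 11.8, in the cornea it was seen on the 0D and Lens-induced arrays only, at 10.9 and 12.1, and it was detected on no lens and no retina array. The sclera was thus at least 31.0-fold above the retina. These 4 miRNAs held their call without each of the 18 arrays in turn and without scaling between arrays, and miR-214-3p lost it when undetected values were set to 0.1.

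**Figure D2:**
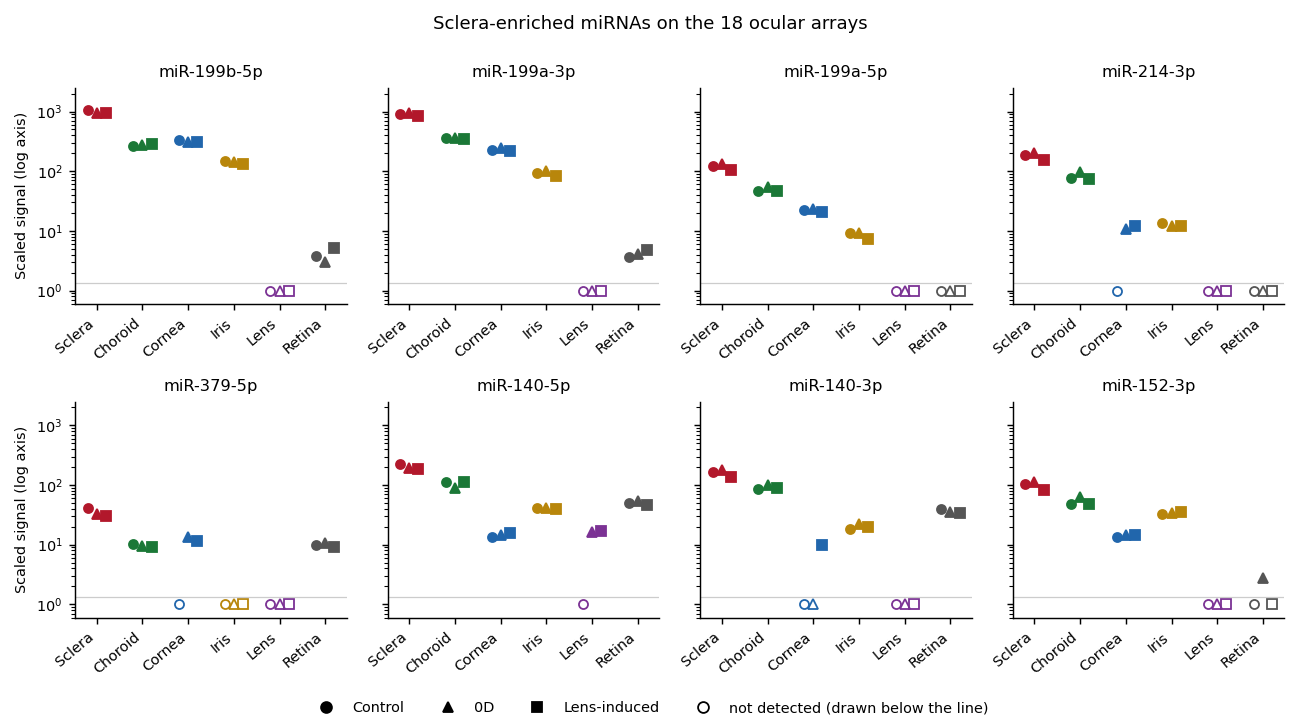
Scaled signals (y axis, log scale) of 8 sclera-enriched miRNAs on the 18 ocular arrays, by tissue (x axis) and lens group (marker shape), with open markers under the grey line for arrays that did not detect the miRNA. The 3 red sclera markers of each panel stand above all other markers, with miR-199b-5p at 950 to 1052 against at most 339 elsewhere.

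The cartilage and matrix list, which held both arms of miR-140 and of miR-455, had 3 of 3 tested members above the mean of the other tissues (median 2.57), against 25.6% of all miRNAs, and 2 of them were enriched, against 5.52%. miR-140 is encoded in Wwp2 and is best known from cartilage, a tissue that shares collagen-rich matrix with the sclera. miR-140-5p was at 229, 189.9 and 182.7 in the sclera, at 111, 88.9 and 114 in the choroid, at 50.9, 53.5 and 46.5 in the retina and at 41.2, 40.6 and 39.3 in the iris. miR-140-3p was at 164, 181 and 134 in the sclera, at 84.7, 101 and 89.4 in the choroid and at 39.8, 35.8 and 33.4 in the retina.

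For both arms the lowest sclera array lay above the highest choroid array, with folds of 1.92 for miR-140-5p and 1.74 for miR-140-3p over the choroid (limma, adjusted p = 0.00213 and 0.000167 over the 5 contrasts). The margin over the choroid was thus narrower than for the miR-199 set. Without scaling between arrays neither arm was called against the choroid, whose arrays had scaling factors of −0.53 to −0.37 (log2), against 0.02 to 0.22 for the sclera arrays. miR-455-3p was at 19.6, 14.6 and 16.5 in the sclera and at 13.0, 13.5 and 15.2 in the cornea, and was not called against the cornea (limma, adjusted p = 0.0837).

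miR-152-3p, encoded in Copz2, had 103, 114 and 83.7 in the sclera, 48.8, 62.4 and 47.8 in the choroid, 32.3, 33.3 and 35.5 in the iris and 13.3, 14.6 and 14.6 in the cornea. It was on 1 of 3 retina arrays, at 2.75, and on no lens array. The sclera exceeded the choroid 1.89-fold (limma, adjusted p = 5.65e-05), and the enriched call was lost without scaling and with undetected values at 0.1 or at the detection limit. Its seed relative miR-148a-3p, chosen after its values were seen, had another pattern, with 54.4, 51.4 and 43.5 in the sclera against 161, 176 and 145 in the cornea, a difference of −1.69 ± 0.16 (log2, SE, 3 arrays each; limma, adjusted p = 6.65e-07), although it too was above the choroid, at 22.1, 24.5 and 21.1.

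The imprinted Dlk1-Dio3 region on chromosome 12 is a large miRNA cluster that is active in brain and in embryonic tissue. Of 18 tested members of its list, 7 were higher in the sclera than the mean of the other tissues, 2 were lower and 9 were not called (median 0, against −0.0001 over all 308). Against the choroid, 6 of 18 were higher and 0 lower, where 12.3% and 9.74% of all miRNAs were called. Against the retina 2 were higher and 8 lower, where 27.9% and 33.4% of all were called, and 14 were lower both without scaling and with normexp background correction. miR-379-5p was enriched, with 41.1, 32.2 and 30.5 in the sclera, 10.2, 9.43 and 9.12 in the choroid, 9.83, 10.6 and 9.17 in the retina and 13.4 and 11.7 on the 2 cornea arrays that detected it. With the undetected Control cornea array at the floor, the sclera was 2.96-fold above the cornea (limma, adjusted p = 1.78e-07 over the 5 contrasts). On the 0D and Lens-induced arrays it was 2.41-fold and 2.60-fold above the cornea. The sclera was at least 6.27-fold above the iris, where miR-379-5p was not detected. The enriched call of miR-379-5p was lost with undetected values at 0.1 and at the detection limit.

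miR-299b-5p, from the opposite strand a short way along the cluster, was at 23.6, 21.3 and 18.9 in the sclera and at 12.9, 10.3 and 8.89 in the cornea. miR-127-3p was at 56.6, 54.5 and 49.5 in the sclera, at 70.1, 63.9 and 57.7 in the retina and at 15.4, 19.5 and 13.9 in the choroid, so that sclera and retina did not overlap but lay near each other (−0.25 ± 0.10, log2 and SE, limma adjusted p = 0.0481). miR-154-5p was at 63.2, 50.6 and 55.1 in the sclera against 71.2, 57.8 and 57.5 in the retina, where the groups overlapped (adjusted p = 0.438 by limma), and against 20.5, 20.8 and 19.2 in the choroid. miR-300-3p was lower in the sclera, at 22.5, 19.6 and 20.03, than in the retina, at 62.7, 52.5 and 51.2. miR-136-5p, at 6.28, 7.92 and 5.62 in the sclera, lay under the floor.

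A further 6 enriched miRNAs were dim, and no role is known well enough to give here. miR-7011-5p had 12.9, 25.9 and 20.7 in the sclera and 6.04, 7.68 and 6.31 in the choroid, and was detected in no other ocular tissue. miR-7653-5p had 18.5, 23.9 and 15.7 in the sclera and was on 2 choroid arrays, at 4.86 and 13.3, and 1 iris array, at 9.02. miR-5107-5p had 21.8, 33.7 and 25.0 in the sclera against 13.8, 16.1 and 14.8 in the choroid. The choroid stayed below every sclera array for all 3 of them.

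For miR-1895 the sclera was at 30.9, 57.7 and 46.5 and the choroid at 22.3, 27.1 and 25.7, for miR-3072-5p at 22.7, 35.3 and 29.8 against 16.6, 18.8 and 16.7, and for miR-3470a at 18.9, 30.8 and 23.5 against 14.3, 16.1 and 14.5. Here too the groups did not overlap, with folds over the choroid of 1.75, 1.66 and 1.60. Without scaling, the enriched call was lost for miR-1895, miR-3072-5p and miR-3470a, and also for miR-7653-5p and miR-5107-5p. miR-7011-5p kept its call there. The Control sclera array was the lowest and the 0D array the highest for 5 of these 6 dim miRNAs, the exception being miR-7653-5p. miR-1895 lost its call without the 0D sclera array or the Control choroid array, and miR-3470a without the latter. The share of G and C in the mature sequence was 72.7% for miR-1895, 77.3% for miR-3072-5p, 63.6% for miR-7653-5p and 60.9% for miR-7011-5p. Among the other enriched miRNAs with a sequence it ran from 40.9% for miR-199a-3p to 59.1% for miR-214-3p. A part of base content in the signals was not tested.

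The last 2 enriched miRNAs fell outside the 15 with the widest margin and were named after their values were seen. miR-22-3p was the only enriched miRNA detected on all 18 arrays, with 946, 1076 and 898 in the sclera and 667, 761 and 692 in the choroid, 1.38-fold (limma, adjusted p = 0.00211). Without scaling, miR-22-3p lost its call. miR-193a-3p, at 37.7, 37.2 and 31.8 in the sclera against 30.1, 26.4 and 27.1 in the cornea, was the nearest to the threshold, at an adjusted p of 0.0252 by limma, and the next miRNAs outside it were let-7b-5p and miR-3095-3p at 0.0641. Its call was lost without the Control or 0D sclera array, without the 0D or Lens-induced cornea array, and without scaling, with quantile normalization and with normexp.

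The 3 depleted miRNAs, miR-106b-5p, miR-19b-3p and miR-92a-3p, are members of the miR-17 to miR-92 family, which is known from dividing cells, and all were detected on all 18 arrays. miR-106b-5p was at 23.2, 24.6 and 19.5 in the sclera, and the 15 other arrays ran from 38.3 to 82.3 with a median of 48.4. miR-19b-3p was at 53.8, 55.2 and 43.7 against 80.9 to 465 with a median of 132.6. miR-92a-3p was at 55.6, 56.7 and 47.8 against 81.3 to 385 with a median of 218. In each case all 3 sclera arrays lay under all 15 others.

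Against the choroid, the lowest of the other tissues, the sclera was 1.82-fold lower for miR-106b-5p, 1.65-fold for miR-19b-3p and 1.63-fold for miR-92a-3p (limma, adjusted p = 1.02e-05, 0.000423 and 0.000197 over the 5 contrasts). Against the lens, whose fibre cells arise from a dividing epithelium, the difference was −3.19 ± 0.11 for miR-19b-3p and −2.73 ± 0.10 for miR-92a-3p (log2, SE, 3 arrays each). The calls held without each of the 18 arrays in turn, and miR-106b-5p lost its call without scaling. When each tissue was fitted with the sclera on its own 6 arrays, a setting added after the data were seen, limma called 0 of the 3, and 3 miRNAs were lower in all 5 contrasts at an unadjusted p under 0.05.

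**Figure D3:**
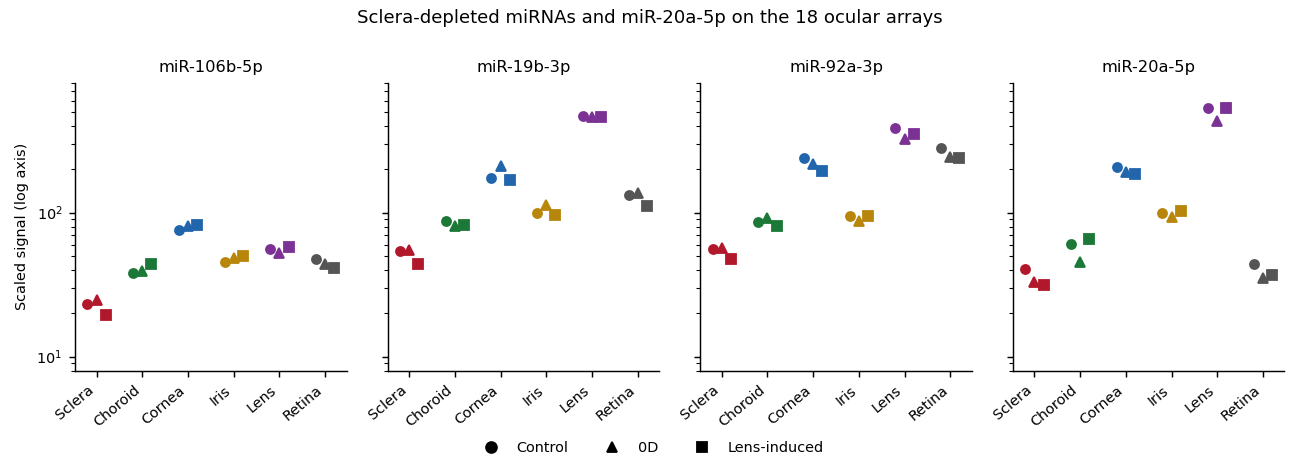
Scaled signals (y axis, log scale) of the 3 sclera-depleted miRNAs and of miR-20a-5p on the 18 ocular arrays, by tissue (x axis) and lens group (marker shape). The red sclera markers are the lowest of their panels for the 3 depleted miRNAs, at 19.5 to 24.6 for miR-106b-5p, while for miR-20a-5p their range overlaps that of the retina.

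Not all miRNAs with these seeds were called depleted. The relatives below were chosen after their values were seen. miR-20a-5p, with the seed of miR-106b-5p, was at 40.3, 33.2 and 31.2 in the sclera and at 44.1, 35.2 and 36.9 in the retina, and at 530, 436 and 532 in the lens. The sclera array was the lowest of the 6 tissues in each lens group, but the ranges of sclera and retina overlapped and that difference was not called (limma, adjusted p = 0.422). miR-25-3p, with the seed of miR-92a-3p, was at 36.1, 40.01 and 28.2 in the sclera, 34.6, 42.9 and 37.9 in the choroid and 24.7, 24.8 and 28.1 in the iris, and was higher in the sclera than in the iris by 0.41 ± 0.12 (log2, SE; adjusted p = 0.013). miR-19a-3p was detected on no sclera array, and on the lens arrays at 25.7, 31.3 and 27.1.

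In the single comparisons, the fewest miRNAs were called between sclera and choroid, with 38 higher in the sclera (12.3%) and 30 lower (9.74%). Against the iris 68 were higher (22.1%) and 59 lower (19.2%), and against the cornea 84 were higher (27.3%) and 44 lower (14.3%). Against the lens 101 were higher (32.8%) and 71 lower (23.1%), and against the retina 86 (27.9%) and 103 (33.4%). Among the miRNAs detected on all 6 arrays of a pair, the median size of the difference was 0.41 (log2) for the choroid, with 191 miRNAs, 0.66 for the cornea, 0.74 for the iris, 1.29 for the retina and 1.31 for the lens. More than a 2-fold difference was seen for 9.95% of these miRNAs against the choroid and 68.5% against the lens.

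**Figure D4:**
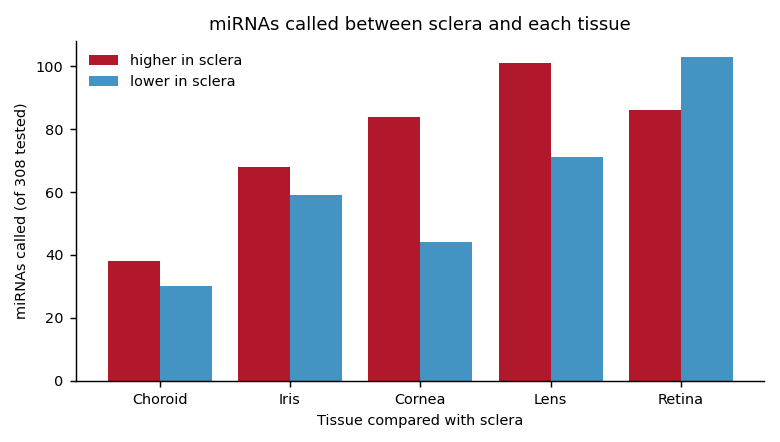
Number of miRNAs called higher (red) or lower (blue) in the sclera than in each other tissue (x axis) of 308 tested (y axis), by limma at an adjusted p under 0.05. The bars are shortest for the choroid, at 38 and 30, and tallest for the lens and retina.

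The 5 miRNAs with the widest margin over the choroid were miR-199b-5p, miR-379-5p, miR-127-3p, miR-154-5p and miR-199a-3p, all given above. The 5 with the widest margin under it were miR-6538, miR-31-5p, miR-204-3p, miR-129-2-3p and miR-139-5p. miR-204-3p, the passenger arm of a miRNA abundant in pigment epithelium, was at 13.5, 17.9 and 13.4 in the sclera and at 34.3, 31.3 and 34.5 in the choroid, −1.17 ± 0.12 (log2, SE; limma, adjusted p = 8.77e-06). miR-31-5p, known from epithelia, was at 7.95 and 8.76 on the Control and 0D sclera arrays and not detected on the Lens-induced one, against 22.6, 22.1 and 24.6 in the choroid. miR-129-2-3p, a neuronal miRNA, was at 9.22, 8.71 and 7.90 in the sclera against 24.8, 24.2 and 17.3 in the choroid and 424, 443 and 352 in the retina. miR-139-5p was at 4.35 and 4.88 on 2 sclera arrays against 18.3, 20.1 and 19.4 in the choroid, and miR-6538 at 6.47, 10.1 and 16.9 against 29.9, 24.9 and 32.2.

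Striated muscle is marked by miR-1a, the miR-133 pair and miR-206, which are the standard muscle miRNAs, and extraocular muscle inserts on the sclera. Of 7 listed muscle miRNAs 4 were tested, of which 2 were higher than the mean of the other tissues, 1 was lower and 1 was not called (median 0.74). Of all 308 miRNAs, 25.6% were higher and 33.4% lower than this mean. None of the 4 was sclera-enriched, and all 4 were lower in the sclera than in the lens, as were 23.1% of all miRNAs. The lens holds no muscle, and whether these lens values come from muscle taken along in dissection or from exchanged samples was not tested. Against each of the other 4 tissues the miR-133 pair was higher in the sclera. miR-133a-3p was at 58.4, 116 and 96.8 in the sclera, at 315, 267 and 298 on the lens arrays, at 29.1, 46.8 and 49.3 in the choroid and at 27.6, 29.8 and 31.3 in the iris.

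miR-133b-3p was at 78.5, 169.6 and 133.4 in the sclera, at 355, 325 and 340 in the lens and at 44.6, 70.2 and 68.8 in the choroid, and miR-1a-3p at 15.6, 39.3 and 23.97 in the sclera, 69.0, 77.7 and 65.3 in the lens and 10.2, 13.96 and 14.2 in the choroid. miR-206-3p was on the 0D sclera array only, at 5.90, and on the lens arrays at 18.1, 16.7 and 14.8. The sclera thus stood second to the lens for the miR-133 pair. The miR-133 pair was called higher than in the choroid (limma, adjusted p = 0.0025 and 0.00582) and miR-1a-3p was not (0.0532). Without scaling, 0 of the 4 were called against the choroid (unscaled differences of 0.39 to 0.53, log2, for miR-1a-3p and the miR-133 pair) and 1 of 4 against the lens, whose arrays had scaling factors of 1.27 to 1.65 (log2).

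The summed signal of the muscle list was 153, 330 and 254 on the Control, 0D and Lens-induced sclera arrays, 757, 686 and 719 on the lens arrays, 83.9 to 132 on the choroid arrays and 12.7 to 14.6 on the retina arrays. The cardiac miRNAs miR-208a-3p and miR-208b-3p and the slow muscle miRNA miR-499-5p were detected on no ocular array. The Control sclera array was the lowest of the 3 for miR-1a-3p and the miR-133 pair and the 0D array the highest, as for 5 of the dim enriched miRNAs. The part of muscle RNA in those miRNAs was not tested. For the 3 miR-199 miRNAs the highest sclera array was at most 1.28 times the lowest, while it was 1.98 times for miR-133a-3p and 2.16 times for miR-133b-3p.

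Retina miRNAs were present on the sclera arrays at a small share of their retina level. The list held the photoreceptor cluster of miR-183, miR-96 and miR-182 and the neuronal miR-124, miR-9 and miR-129, and 9 of 9 members were lower in the sclera than in the retina under each of the 5 normalizations run. Against the mean of the other 5 tissues, 1 was higher, 5 were lower and 3 were not called (median −0.50). Of all miRNAs, 25.6% were higher and 33.4% lower than this mean, and 33.4% were lower than in the retina. miR-183-5p was at 658, 253 and 327 in the sclera against 9710, 8510 and 8906 in the retina, or 6.78%, 2.97% and 3.67% of it. miR-96-5p was at 393, 170 and 179 against 5739, 6105 and 5009, and miR-182-5p at 43.2, 18.3 and 17.5 against 721, 621 and 583. miR-124-3p was at 587, 346 and 321 against 11409, 10441 and 10202, or 5.15%, 3.32% and 3.15%. Such shares were not particular to the sclera. In the lens miR-124-3p was at 0.92%, 2.96% and 3.83% of the retina, and sclera and lens were not called apart (limma, adjusted p = 0.192). In the cornea miR-182-5p was at 5.33%, 4.99% and 4.47% of the retina, but miR-124-3p only at 0.18%, 0.25% and 0.24%. The iris had 0.14%, 0.12% and 0.22% for miR-183-5p.

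On the Control sclera array these 4 were the highest of the 3 sclera arrays. The Control choroid array was likewise the highest of the choroid arrays, with miR-183-5p at 900 against 588 and 520, and choroid and sclera were not called apart for any of the 4 (limma, adjusted p = 0.236 to 0.267). Over the whole list, 0 of 9 were higher and 2 lower in the sclera than in the choroid. Of all miRNAs, 12.3% were higher there and 9.74% lower. Without scaling, 8 of the 9 were lower. The summed signal of the list was 1810, 915 and 962 in the sclera, 2672, 1937 and 1588 in the choroid, and 29293, 27426 and 26220 in the retina. miR-9-3p, chosen after its values were seen, stood apart with 110, 112 and 102 in the sclera, or 13.9%, 12.9% and 13.6% of the retina. It did so in the choroid too, at 191, 153 and 166, or 24.1%, 17.7% and 22.2% of the retina. The sclera and choroid were not called apart for it (limma, adjusted p = 0.111). miR-9-5p and miR-129-1-3p were detected on no sclera array.

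**Figure D5:**
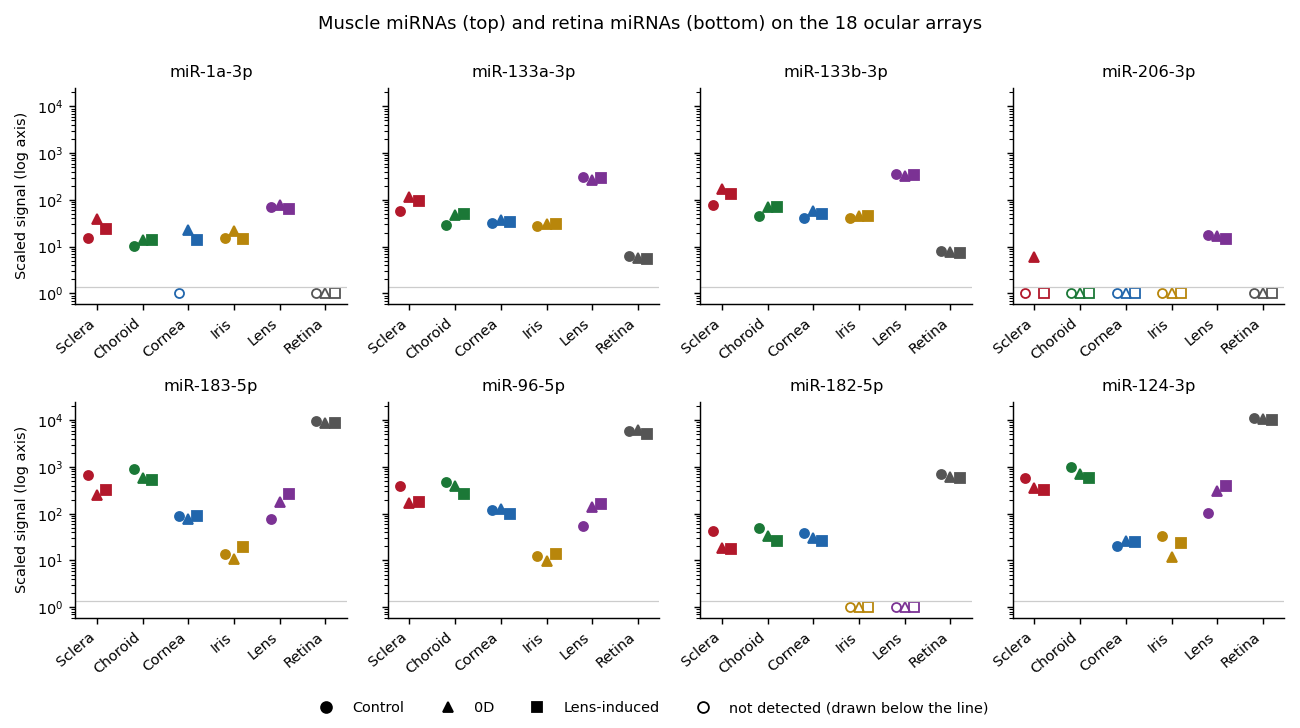
Scaled signals (y axis, log scale) of 4 muscle miRNAs (top) and 4 retina miRNAs (bottom) on the 18 ocular arrays, by tissue (x axis) and lens group (marker shape), with open markers under the grey line for arrays that did not detect the miRNA. Muscle miRNAs are highest on the lens arrays, with the sclera next for the miR-133 pair, and the retina miRNAs lie at 2.79% to 6.85% of the retina level in the sclera.

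Of the 17 enriched miRNAs, 6 were detected on no retina array and 10 on all 3, and 15 were detected on no lens array. Fewer miRNAs were seen in the lens at all, with 154 detected on any lens array, against 249 for the retina and 251 for the sclera. The enriched call also asks for a lower level in each of these tissues. These counts are therefore a description, and the matching shares of all tested miRNAs were not counted. The levels of the miR-199 set on the retina arrays were at most 5.09, under the floor. For the miRNAs that the sclera shares with the retina at like levels, such as miR-127-3p, the part of retina RNA in the sclera value was not tested. In such bulk samples, fewer cells of a type and less RNA per cell cannot be told apart.

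Other cell types left different marks on the sclera arrays. Of the surface and lens epithelium list, 9 of 9 were lower in the sclera than the mean of the other tissues (median −1.17), against 33.4% of all miRNAs. The single tissues differed, with 9 lower than in the cornea, 4 than in the iris and 2 than in the lens. Of all miRNAs, 14.3%, 19.2% and 23.1% were lower there. Against the choroid 1 was lower (9.74% of all), and against the retina 0 were lower (33.4% of all) and 1 higher. Of the 9, 7 were detected on no sclera array. miR-205-5p, the marker of stratified epithelium, was at 1098, 1108 and 895 in the cornea, at least 111-fold above the sclera, where it was not detected, and miR-200b-3p was at 523, 543 and 495, at least 56.1-fold. For miR-200a-3p and miR-203-3p the limits were 16.5-fold and 7.11-fold. miR-184-3p, chosen after its values were seen, was on all 3 sclera arrays, at 123, 111 and 275, against 36854, 29710 and 34076 in the cornea.

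The endothelial miR-126a-3p was at 393, 387 and 242 in the sclera, 331, 350 and 329 in the iris and 1198, 1030 and 1203 in the choroid, the vascular coat. All 3 choroid arrays exceeded all sclera arrays, but the difference of −1.78 ± 0.61 (log2, SE) was not called (limma, adjusted p = 0.0532). It was called lower without scaling, with quantile normalization and with normexp (adjusted p = 0.00765, 0.0288 and 0.00048). In the cornea 1 array of 3 detected it, at 86.5, and the others entered at the floor. The SE was pooled over the tissues and so holds this spread of the cornea arrays. The list had 1 tested member, which was higher than the mean of the other tissues (median 1.91), as were 25.6% of all 308 miRNAs. miR-126a-5p was on no sclera array. Of the blood list, miR-451a of red cells was at 32.8, 32.4 and 25.4 in the sclera and 34.2, 41.8 and 59.4 in the choroid, and miR-223-3p of myeloid cells at 56.8, 51.4 and 42.0 and 53.1, 52.6 and 58.2. Of 3 tested blood miRNAs 2 were higher in the sclera than the mean of the others (median 0.73), against 25.6% of all miRNAs. miR-142a-3p was detected on no sclera array.

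The smooth muscle miR-143-3p was at 39.9, 37.3 and 24.1 in the sclera and at 304, 310 and 307 in the iris, whose sphincter and dilator are smooth muscle, and miR-145a-5p was on no sclera array. Of the 2 tested in this list 1 was higher than the mean (median 0.08), against 25.6% of all 308 miRNAs. Of the pigment cell list 3 of 4 were lower than the mean (median −0.24), against 33.4% of all 308 miRNAs. miR-204-5p was at 544, 670 and 519 in the sclera and 758, 881 and 768 in the choroid, miR-211-5p at 48.4, 74.97 and 51.3 against 71.9, 128 and 108, and miR-211-3p at 25.2, 39.1 and 45.4 against 28.0, 26.3 and 28.7. Only the first of these was called between the tissues (limma, adjusted p = 0.00348 for miR-204-5p, 0.149 and 0.269 for the others).

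Of the miR-29 family, which targets collagen messages, 0 of 3 members were higher in the sclera than in the iris, retina or choroid. Of all miRNAs, 22.1%, 27.9% and 12.3% were higher there. All 3 were higher than in the lens and 1 than in the cornea, against 32.8% and 27.3% of all. Against the choroid 0 of 3 were called lower (9.74% of all), but all 3 were without scaling. Against the iris 1 of 3 was called lower (19.2% of all) and all 3 without scaling. miR-29a-3p was at 1278, 1155 and 977 in the sclera and 1177, 1081 and 1140 in the choroid, where the groups overlapped. miR-29b-3p was at 125, 141 and 90.1 in the sclera, 146, 148 and 127 in the choroid and 294, 309 and 220 in the retina. miR-29c-3p was at 222, 202 and 154 against 1391, 1358 and 1073 in the retina, a difference of −2.73 ± 0.15 (log2, SE; limma, adjusted p = 1.76e-09). Of the 3, 1 was higher than the mean of the other tissues, 1 lower and 1 not called (median 0.21), where 25.6% and 33.4% of all miRNAs were higher and lower.

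Of the let-7 family, abundant in most adult tissues, 4 of 9 members were higher than the mean, 3 were lower and 2 were not called (median 0.03), where 25.6% and 33.4% of all miRNAs were higher and lower. Against the choroid 2 were higher and 0 lower, where 12.3% and 9.74% of all were called, and without scaling 0 were higher and 3 lower. Against the iris 1 was higher and 7 lower, and against the retina 3 were higher and 6 lower, where 19.2% and 33.4% of all miRNAs were lower. Against the cornea 5 were higher and 0 lower, and against the lens 7 were higher and 1 lower, where 27.3% and 32.8% of all were higher. let-7b-5p was highest in the sclera, at 2146, 2121 and 1903 against 1645, 1815 and 1746 in the choroid, and missed the enriched call. let-7c-5p was at 1862, 1933 and 1599 against 1689, 1874 and 1788 in the choroid, let-7a-5p at 895, 881 and 776 against 774, 785 and 796, and let-7d-5p at 539, 477 and 471 against 471, 432 and 490. The sclera and choroid ranges overlapped for these 3. The 4 listed miRNAs of the Hox clusters, which mark trunk tissue, were detected on no ocular array.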

How the data were processed

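Total RNA of 8 tissues was labelled with cyanine 3 and hybridised to 24 one-color Agilent miRNA arrays. The authors scanned the arrays and made the deposited intensity values with Feature Extraction 10.7.1.1 (version from the submitters' processing notes), which subtracts the background and gives each probe a total signal with an error. A deposited table with the authors' summed values was not used. For each of 1881 miRNAs, read by 30 spots, the total signals of probes above 3 errors were summed, and a miRNA with no such probe was not detected. Each array was multiplied by a factor that gave the 79 miRNAs seen on every one of the 24 arrays the same 75th percentile, and values were raised to a floor of 9.93 and taken as log2. Depth has no meaning for arrays.

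The 308 miRNAs detected on at least 3 of the 18 ocular arrays were fitted with 1 mean per tissue in limma 3.58.1 (R 4.3.3), with contrasts of the sclera against the mean of the 5 others and against each, Benjamini-Hochberg adjusted over all 308 and called under 0.05. For the call against each tissue the largest of 5 p-values was adjusted. Named were the 15 enriched miRNAs with the widest margin, all depleted ones, the first 4 detected members of each list and the 5 with the widest margin on each side against the choroid. The 13 marker lists came from general knowledge, and the members and lists were chosen with earlier results of these data known. The script was tested on simulated data. The alternatives were 9 other settings, each array left out in turn, and 2 settings added after the data were seen (undetected values at the detection limit, and each contrast on its own 6 arrays). Lens groups share replicate numbers only through the slide, which was used as the block. Sequences, positions and gene spans came from RefSeq (GRCm38.p6). The names miR-199b-3p, miR-299a-5p, miR-142-3p and miR-486-5p were not on the array. Python 3.11.15, numpy 2.4.6, pandas 2.3.3 and matplotlib 3.10.9 were used.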

Additional observations from a re-analysis of the deposited data

Results flagged for a closer look

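miR-379-5p, enriched in the sclera among the ocular tissues, was higher on the brain arrays, which entered no comparison. Its mean scaled signal over the 6 SCN and LGN arrays was 76.8, with 97.6, 113 and 121 in the SCN and 44.2, 44.4 and 40.8 in the LGN, against 41.1, 32.2 and 30.5 in the sclera. No tissue had the 4 arrays needed to look for single arrays that stand apart.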

How the results depend on the processing

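The main counts were 17 enriched, 3 depleted, 79 higher and 103 lower miRNAs. Without scaling there were 11 enriched (7 shared with the 17) and 8 depleted (2 shared), and with undetected values at 0.1, 11 enriched (6 shared). Restricted to the 88 miRNAs detected on all 18 arrays, which removes most enriched ones by construction, there were 1 enriched, 26 higher and 32 lower. With undetected values at the detection limit, 5 were enriched, and with each contrast on its own 6 arrays 4 were enriched and 0 depleted (limma; 18 and 3 at an unadjusted p under 0.05 in all 5 contrasts). Leaving out 1 array gave 15 to 24 enriched, 3 to 4 depleted, 72 to 86 higher and 86 to 110 lower, with 24 enriched without the Control sclera array and 21 without the Lens-induced one. Of the 17, 14 were called without each array in turn, and 3 (miR-199b-5p, miR-199a-3p and miR-199a-5p) in every setting that tested them. With the lens group and slide as a replicate block, 18 were enriched, 3 depleted, 84 higher and 103 lower. Quantile normalization gave 14 and 3, and normexp, run on median spot signals because the files hold no mean, 19 and 4. The causes were not tested, except where the setting removes miRNAs. The 75th percentile over all miRNAs was not run, because it lay below 0 on 1 lens array. Of the 17 enriched calls, 10 were lost without scaling, 11 with undetected values at 0.1, 12 at the detection limit, 13 on their own 6 arrays, 4 with normexp and 3 with quantile normalization. The difference from the mean of the other 5 tissues, a separate call, was graded the same in 729 checks of single miRNAs, weaker in 7 and reversed in 0. Detection limits were highest in the lens, so that dim miRNAs have no fold there, and 807 of 3596 detected ocular values lay under the floor.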
